A study of Rattus norvegicus with 29 samples.

Results

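The genes that make, package and mark the inhibitory transmitter GABA were followed in rat basolateral amygdala, a region where signals become tied to painful events. The members were chosen by name as all probe sets annotated to 7 rat symbols: Gad1, Gad2, Slc32a1, Pvalb, Calb1, Calb2 and Reln. They are 7 of the 10411 genes that the annotation names with a single symbol, and came to 9 of the 15866 probe sets that are not controls, with 2 each for Gad1 and Reln and 1 for each other gene. A probe set is a group of short DNA probes on an array that read the same transcript, and its signal is a brightness.

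The study used 29 arrays, each from 1 sample of total RNA. There were 9 baseline control arrays, for which the labels give no time, and 5 arrays in each of 4 groups taken at 6 h: pain, isoflurane (an inhaled anaesthetic), fear conditioning, and fear conditioning in the presence of isoflurane. Pain is described in the labels as a component of conditioning, and isoflurane as an agent that blocks memory formation, so the comparisons ask which expression differences go with long-term memory rather than with pain or anaesthesia alone. The labels used here give no strain, age or sex, and rat numbers stand only on the 15 arrays of pain, conditioning and conditioning under isoflurane, so p-values measure the spread between these samples.

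GABA is made from glutamate by the glutamate decarboxylases GAD67, encoded by Gad1, and GAD65, encoded by Gad2, and is loaded into synaptic vesicles by the transporter encoded by Slc32a1. In the basolateral amygdala most neurons are excitatory and the GABA neurons are interneurons, many of which can be told apart by the calcium-binding proteins parvalbumin (Pvalb), calbindin (Calb1) and calretinin (Calb2). Reelin, encoded by Reln, is a large secreted protein kept by some adult interneurons. The neighbouring central amygdala and striatum are built largely of GABA neurons, so transcripts of Gad1, Gad2 and Slc32a1 are also strong there.

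Promoter sequences were taken from RefSeq (genome GRCr8), which held an entry for 5 of the 7 members. The sequences of Gad2 and Slc32a1 are shown because these genes, with Gad1, varied together between arrays. Their windows also end right before the annotated gene start. As described below, the correlations of Gad2 were no longer called without 1 baseline array, and shared regulation was not tested. Each run is the 250 bases before the start, 5′ to 3′ on the plus strand, at chr17:89671468-89671717 for Gad2 and chr3:167686995-167687244 for Slc32a1, and capitals mark a GC box (GGGCGG on either strand).
Gad2: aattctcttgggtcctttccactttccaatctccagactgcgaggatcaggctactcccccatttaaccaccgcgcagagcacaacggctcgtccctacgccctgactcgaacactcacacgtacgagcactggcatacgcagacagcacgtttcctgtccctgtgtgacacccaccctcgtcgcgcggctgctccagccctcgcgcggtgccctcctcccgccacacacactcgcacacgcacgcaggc
Slc32a1: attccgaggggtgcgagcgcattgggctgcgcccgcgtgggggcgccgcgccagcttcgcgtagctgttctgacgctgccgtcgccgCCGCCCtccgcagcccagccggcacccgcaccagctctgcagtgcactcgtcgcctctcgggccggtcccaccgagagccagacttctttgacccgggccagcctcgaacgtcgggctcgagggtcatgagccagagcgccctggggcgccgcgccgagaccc
The Slc32a1 window held 1 GC box and the Gad2 window none, while 30.47% of 33469 promoter windows of the same length held at least 1. On either strand neither window held the motif TATAAA, which 12.93% of all windows held. Neither held TAATTA, the homeodomain core, present in 4.858%, nor the E-box CACGTG, present in 5.593%. With 1 match in all, no motif overlapped another. Both windows were richer in G and C, at 62% for Gad2 and 73.6% for Slc32a1, than the median window at 51.2%.

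The tissue check found both excitatory and GABA neuron transcripts. Of 12 excitatory neuron markers on the array, 10 lay above the filter on dim probe sets (a mean log2 signal of at least 7.26), among them Slc17a7 at 11.71, Camk2a at 10.92 and Nrgn at 12.59, while Tbr1 and Cux2 lay below it. Of 12 markers of striatal medium spiny neurons, 9 lay above the filter, among them Penk at 12.10 and Ppp1r1b at 9.96, while Adora2a, Pdyn and Gpr6 lay below it. Of 10 markers of the central and medial amygdala, 6 passed. Of all 10411 genes with a single symbol 7049 passed, so these counts alone do not show which cell types were present. The third array of the pain group stood apart from the rest. Its mean correlation with the other arrays over probe sets was 0.906, against at least 0.9497 for each other array.

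None of the 8 member probe sets that passed the filter passed the test for a difference between groups. The ninth, Reln 1369093_at, had a mean log2 signal of 6.03 and was too dim for the test. In the limma fit on all 29 arrays, 0 of 8 passed an adjusted p of 0.05 and 0 of 8 reached an unadjusted p under 0.05 in any of 7 comparisons of 2 groups, in the interaction of conditioning with isoflurane, or in the F test over 5 groups. Each span of group means was smaller than the within-group SD of its probe set.

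The background for these counts was low at the adjusted threshold. Over the 9520 probe sets tested, 0% were called in every comparison except isoflurane minus baseline, where 1 probe set (0.0105%) was called. At an unadjusted p under 0.05, the shares of all probe sets were 8.96% in pain minus baseline, 5.38% in isoflurane minus baseline, 10.1% in conditioning minus baseline and 6.5% in conditioning under isoflurane minus baseline. They were 9.04% in conditioning minus pain, 3.69% in conditioning under isoflurane minus conditioning, 4% in conditioning under isoflurane minus isoflurane, 4.79% in the interaction and 7.35% in the F test. With 8 members, shares of this size amount to less than 1 probe set, so counts of 0 do not set the members apart from other transcripts.

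**Figure D1:**
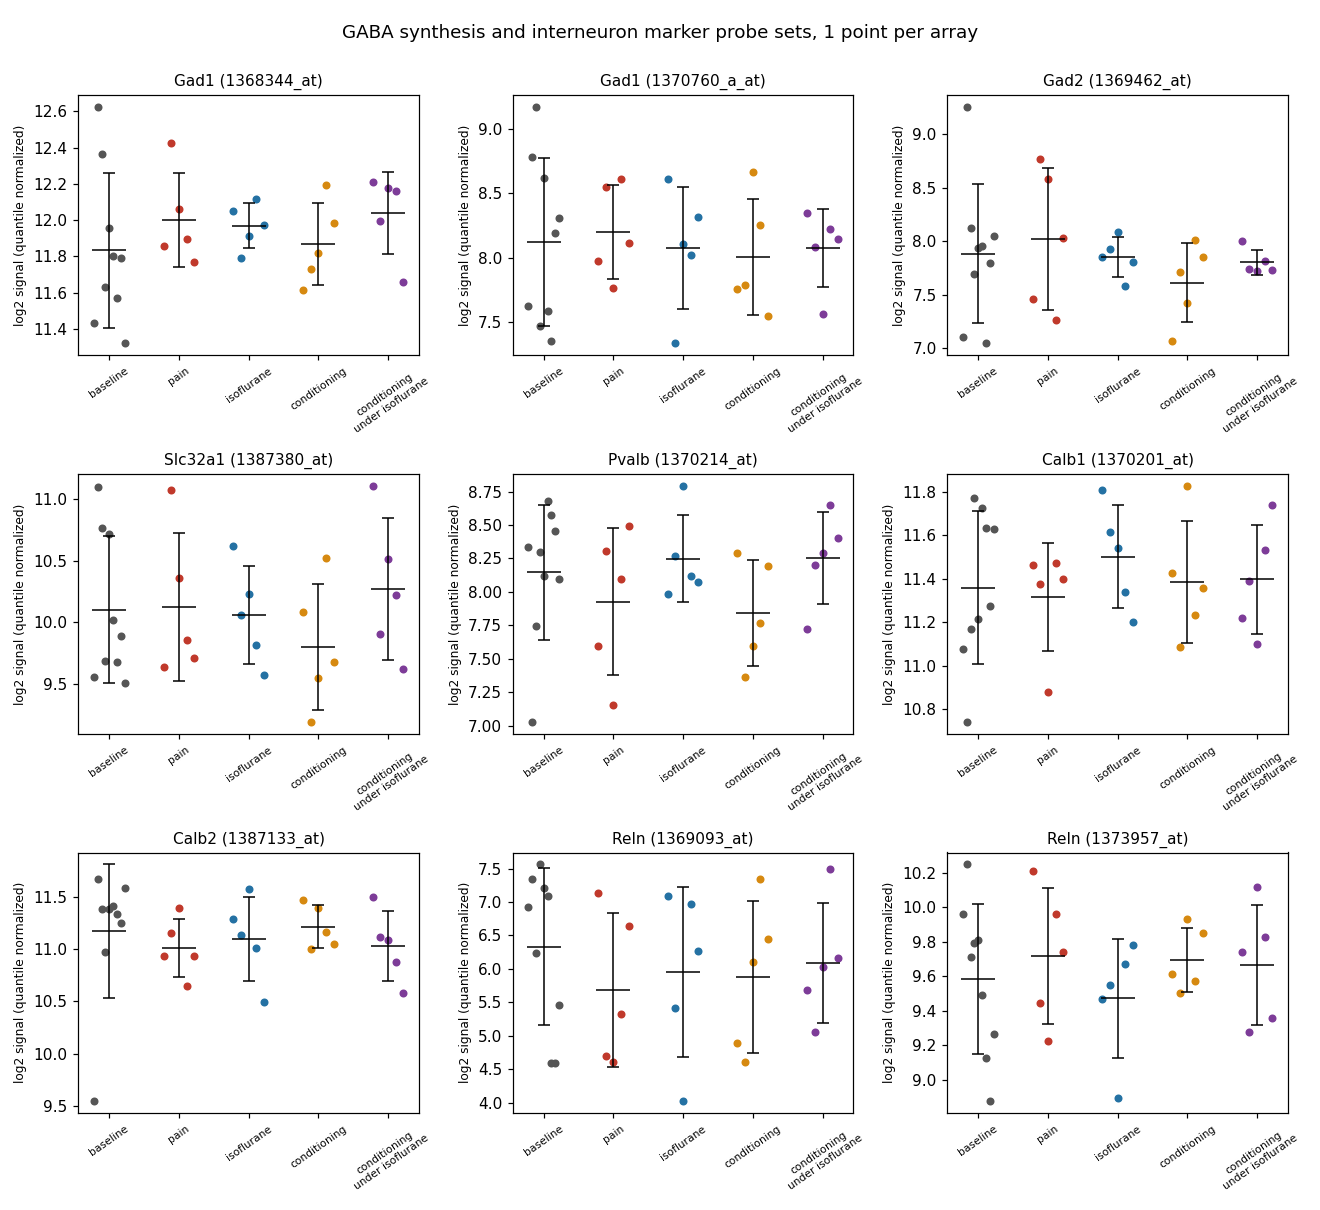
Log2 signal (y axis, quantile normalized) of each of the 9 member probe sets on 29 arrays by group, with 1 point per array, the group mean as a long line and bars of 1 SD. In each panel the values of all 5 groups overlap, and Gad2 spreads widely in baseline (7.05 to 9.25) and in pain (7.27 to 8.76).

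Gad1 was read by a bright probe set, 1368344_at, and a dimmer one, 1370760_a_at, at chr3:75777260-75818099 (GRCr8, the whole gene). Among the 9 baseline arrays the log2 signal of 1368344_at ran from 11.32 through a median of 11.79 to 12.63. In the pain group it was 11.86, 12.43, 12.06, 11.90 and 11.77, and in the isoflurane group 12.05, 11.79, 11.91, 12.12 and 11.98. Both groups lay wholly inside the baseline range. The conditioning arrays read 11.61, 11.73, 11.82, 12.19 and 11.99, and those of conditioning under isoflurane 12.21, 12.00, 12.18, 12.16 and 11.66. Again no array left the baseline range. The largest difference from baseline, in conditioning under isoflurane, was 0.21 (SE 0.15, 95% interval -0.11 to 0.52, limma adjusted p = 0.85), and 4 of 5 arrays lay above the baseline mean.

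The order of the Gad1 means, from baseline at 11.83 ± 0.43 (SD, n = 9) to conditioning under isoflurane at 12.04 ± 0.23 (SD, n = 5), spanned 0.21, less than the within-group SD of 0.30. No neighbours in that order were separated. The dimmer Gad1 probe set put its groups in another order, with means from 8.00 in conditioning to 8.20 in pain and a within-group SD of 0.50. Its name marks probes that match several transcripts of the gene. The 2 probe sets correlated within groups at r = 0.53 (rho = 0.50, permutation p = 0.014, n = 29), but at 0.34 without the 2 arrays farthest from the median (permutation p = 0.21) and at 0.25 in the 20 treated arrays, against 0.72 in the 9 baseline arrays.

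Gad2, at chr17:89671718-89734246, varied more widely. Its baseline signals ran from 7.05 through 7.94 to 9.25. The pain arrays read 7.46, 8.76, 8.58, 7.27 and 8.03, and the isoflurane arrays 7.86, 7.93, 8.09, 7.58 and 7.81. Pain thus held both high and low arrays, while the 5 isoflurane arrays lay close together near the middle of the baseline range. Conditioning gave 7.07, 7.71, 7.42, 8.01 and 7.85, and conditioning under isoflurane 8.00, 7.74, 7.72, 7.81 and 7.73. All 5 conditioning arrays lay below the pain mean of 8.02, yet the groups overlapped. The difference of conditioning from pain was -0.41 (SE 0.29, 95% interval -0.996 to 0.18, limma adjusted p = 0.637), and from baseline -0.27 (SE 0.25, limma adjusted p = 0.748). Both moved with single arrays. The first was -0.22 without the second pain array and -0.27 without the third, and the second was -0.10 without the second baseline array and -0.14 without the first conditioning array.

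The spread of Gad2 was itself uneven between groups. Its SD was 0.64 in baseline (n = 9), 0.66 in pain, 0.19 in isoflurane, 0.37 in conditioning and 0.12 in conditioning under isoflurane (n = 5 each). The baseline SD rested partly on the second baseline array, whose 9.25 stood well above the next value, 8.12. Differences in spread between groups were not tested.

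Slc32a1, the vesicular GABA transporter gene at chr3:167687245-167691714, had the largest spread of the tested members, with a within-group SD of 0.55. In baseline its log2 signal ran from 9.51 through 9.89 to 11.10. The pain arrays read 9.63, 11.07, 10.36, 9.85 and 9.71, and the isoflurane arrays 10.62, 10.06, 10.23, 9.82 and 9.57. The second pain array was near the top of the baseline range, the third lay above the baseline mean of 10.10 and the other 3 below it. Signals were 10.08, 9.19, 9.55, 10.52 and 9.68 in conditioning, and 11.11, 9.90, 10.51, 10.22 and 9.62 in conditioning under isoflurane. The lowest and the highest Slc32a1 arrays of the whole series stood in these 2 groups, which still overlapped.

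The Slc32a1 mean of conditioning under isoflurane lay above that of conditioning by 0.47 (SE 0.32, 95% interval -0.17 to 1.11, limma adjusted p = 0.999), the largest difference of a tested member in any comparison of 2 groups, with 4 of 5 arrays above the conditioning mean. It was 0.26 without the first array of conditioning under isoflurane. For Slc32a1 the interaction, conditioning under isoflurane minus isoflurane less conditioning minus baseline, was 0.51 (SE 0.42, 95% interval -0.35 to 1.37, limma adjusted p = 0.961), and 0.30 without that array. Group means ran from 9.80 ± 0.51 in conditioning (SD, n = 5) to 10.27 ± 0.57 in conditioning under isoflurane (SD, n = 5), a span below the within-group SD. The intervals allow differences of more than 1 log2 unit, so they do not show equal levels.

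**Figure D2:**
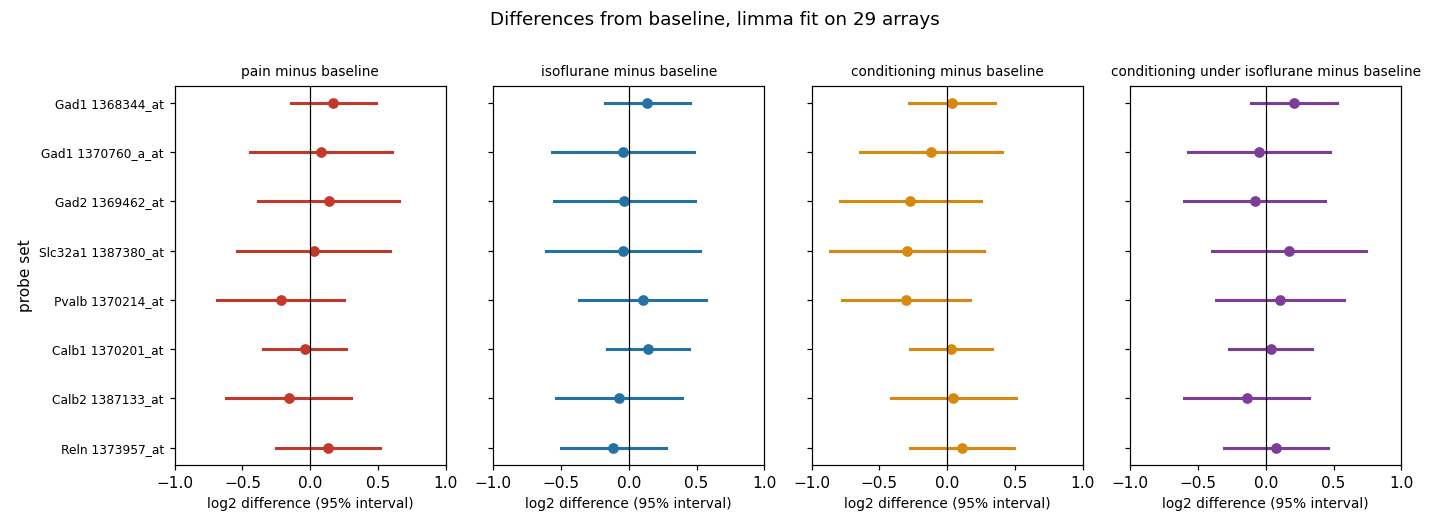
Log2 difference from baseline (x axis) of the 8 tested member probe sets in each of 4 groups, from the limma fit on 29 arrays, with 95% intervals as bars. Every interval crosses 0, and those of Slc32a1 and Gad1 1370760_a_at are among the widest.

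Pvalb, at chr7:111653820-111668469, marks fast-spiking interneurons, which wrap the bodies of excitatory cells. Its baseline log2 signals ran from 7.03 through 8.30 to 8.68. Pain gave 7.59, 8.30, 7.15, 8.10 and 8.49, and isoflurane 7.98, 8.27, 8.80, 8.12 and 8.08. Most arrays of both groups lay inside the baseline range, and 1 isoflurane array exceeded it. In conditioning the values were 8.29, 7.36, 7.60, 7.77 and 8.19, and in conditioning under isoflurane 7.72, 8.20, 8.29, 8.65 and 8.40. Conditioning held the lowest Pvalb mean, 7.84 ± 0.39 (SD, n = 5), and conditioning under isoflurane the highest, 8.25 ± 0.34 (SD, n = 5).

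The Pvalb difference of these 2 groups was 0.41 (SE 0.26, 95% interval -0.12 to 0.94, limma adjusted p = 0.999). Against baseline, Pvalb differed by -0.30 in conditioning (SE 0.23, 95% interval -0.77 to 0.17, limma adjusted p = 0.669) and by -0.22 in pain (SE 0.23, limma adjusted p = 0.809). The pain value rested on the array that stood apart: without it the difference was -0.03. The conditioning value was -0.18 without the second conditioning array. In isoflurane and in conditioning under isoflurane the Pvalb means lay above baseline, by 0.10 and 0.11.

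Astrocyte markers were mostly above baseline in all 4 groups. Of 12 astrocyte markers, 11 had a higher mean than in baseline in conditioning and 6 did so at an unadjusted p under 0.05, with 10 and 5 in pain, 11 and 4 in conditioning under isoflurane, and 10 and 3 in isoflurane. Of 10 oligodendrocyte markers, 10 were higher in conditioning and 4 reached that p, while 5, 6 and 6 were higher in pain, isoflurane and conditioning under isoflurane, with 0, 1 and 0 at that p. Over all 9520 probe sets, 487 were higher at that p in conditioning, 412 in pain, 309 in conditioning under isoflurane and 251 in isoflurane. None of either list passed the adjusted threshold. The part of glial content in the Pvalb values was not tested, and in bulk tissue fewer cells of a type and less RNA per cell cannot be told apart.

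Calb1, at chr5:34172612-34199555, was the steadiest member, with a within-group SD of 0.29. Its baseline log2 signals ran from 10.74 to 11.77 around a median of 11.27, and the 20 treated arrays from 10.88 to 11.83. Group means lay between 11.32 ± 0.25 in pain and 11.50 ± 0.24 in isoflurane (SD, n = 5 each). The largest difference from baseline was 0.14 in isoflurane (SE 0.15, 95% interval -0.16 to 0.45, limma adjusted p = 0.986). It was 0.06 without the second baseline array or without the first isoflurane array, and 0.22 without the fifth isoflurane array. Without the second baseline array the largest difference was that of pain, -0.12 (limma adjusted p = 0.786).

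Calb2, at chr19:55023849-55050858, had baseline signals from 9.55 through a median of 11.38 to 11.67, with 8 of the 9 arrays at 10.97 or above. Treated arrays ran from 10.49 to 11.57. Differences from baseline lay between -0.16 in pain (SE 0.23, limma adjusted p = 0.882) and 0.04 in conditioning (SE 0.23, limma adjusted p = 0.962). These values moved with the single low baseline array, the first. Without it, the difference was -0.36 in pain (limma adjusted p = 0.402) and -0.34 in conditioning under isoflurane (limma adjusted p = 0.831), both at unadjusted p under 0.05 (0.0226 and 0.0302).

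Reln, at chr4:13628440-14055201, was read by 1373957_at above the filter and by 1369093_at below it. The brighter probe set ran from 8.88 through 9.71 to 10.25 in baseline and from 8.90 to 10.21 in the treated arrays. Its differences from baseline lay between -0.11 in isoflurane (SE 0.19, limma adjusted p = 0.989) and 0.13 in pain (SE 0.19, limma adjusted p = 0.884). With single arrays left out they ran from -0.20 to 0.03 in isoflurane, without the eighth baseline and the third isoflurane array, and from 0.01 to 0.25 in pain, without the first and the third pain array. The dim probe set ran from 4.02 to 7.56 over all arrays, with a within-group SD of 1.14. In a limma fit without the filter its differences from baseline lay between -0.65 (SE 0.61, adjusted p = 0.793) and -0.25 (SE 0.61, adjusted p = 0.983). The 2 Reln probe sets nonetheless correlated within groups at r = 0.72 (rho = 0.64, permutation p = 1e-04, n = 29), and at 0.65 without the 2 farthest arrays.

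Taken as a list, the 8 tested member probe sets had a median difference from baseline of 0.05 in pain (5 higher, 3 lower), -0.04 in isoflurane (3 higher, 5 lower), -0.05 in conditioning (4 higher, 4 lower) and 0.06 in conditioning under isoflurane (5 higher, 3 lower). Medians over all 9520 probe sets were within 0.01 of 0 in these comparisons. Conditioning was lower than pain for 6 of 8, with a median of -0.11, and lower than conditioning under isoflurane for 6 of 8, with a median of 0.12 for conditioning under isoflurane minus conditioning. Of all 9520 probe sets, 49.7% were lower in conditioning than in pain, and 48.2% were lower in conditioning under isoflurane than in conditioning. These comparisons share the conditioning arrays. The 8 probe sets are not independent either, since 2 read Gad1, and Gad1, Gad2 and Slc32a1 varied together, as described below. The lowest adjusted p of any member over all comparisons was 0.637.

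The other genes of GABA handling and interneuron identity did not pass the test either. Of 60 further genes on 4 lists (GABA metabolism and transport, interneuron peptides and receptors, interneuron transcription factors, other interneuron markers), 40 were on the array and 26 were tested, and limma called 0 in each of the 4 comparisons with baseline. The counts of higher and lower genes were 16 and 10 in pain, 15 and 11 in isoflurane, 12 and 14 in conditioning, and 14 and 12 in conditioning under isoflurane. At an unadjusted p under 0.05 in limma there were 1 higher and 1 lower in pain and 0 in isoflurane. In conditioning 3 were higher, and in conditioning under isoflurane 1. Of all probe sets, 8.96% reached that p in pain, 5.38% in isoflurane, 10.1% in conditioning and 6.5% in conditioning under isoflurane. These counts do not set the lists apart from other transcripts.

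In pain the lowest p values belonged to Kcnc2, a potassium channel gene of fast-spiking cells, at -0.27 (SE 0.13, limma adjusted p = 0.528), Hapln1, which links the matrix around neurons, at 0.33 (SE 0.15, limma adjusted p = 0.534), and Glul, the astrocyte glutamine synthetase, at 0.14 (limma adjusted p = 0.587). In conditioning they were Glul at 0.21 (SE 0.08, limma adjusted p = 0.417) and the interneuron transcription factors Prox1 at 0.34 (SE 0.15, limma adjusted p = 0.467) and Sox6 at 0.38 (SE 0.18, limma adjusted p = 0.488). Glul is also one of the astrocyte markers described above. In isoflurane the lowest p belonged to Dlx5 at 0.33, Vip at 0.30 and Nr2f2 at 0.24, with limma adjusted p of 0.962, 0.977 and 0.983. Dlx5, a homeobox factor of developing GABA neurons, also led in conditioning under isoflurane at 0.48 (SE 0.19, limma adjusted p = 0.692), followed by the peptide gene Cck at -0.34 (limma adjusted p = 0.765) and the potassium channel gene Kcnc1 at 0.27 (limma adjusted p = 0.796). None of these differences met the adjusted threshold.

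What the members did show was a wide spread among arrays of the same group. The within-group SD of the 8 tested member probe sets ran from 0.29 to 0.55. This put them at the 72.9th to 97.5th percentile of all tested probe sets, whatever their signal level, whose median SD was 0.23. Gad2, Pvalb and Gad1 1370760_a_at, at percentiles of 96.2, 94.5 and 96.4, were dim, with mean log2 signals of 7.84, 8.09 and 8.10. Among brighter members Slc32a1 and Calb2 stood at 97.5 and 94.7, and Reln 1373957_at, Gad1 1368344_at and Calb1 at 88.3, 76.2 and 72.9. Between the lowest and the highest baseline array, signals differed by 2.04-fold for Calb1, 2.47-fold for Gad1 1368344_at, 3.01-fold for Slc32a1, 3.15-fold for Pvalb, 4.34-fold for Calb2 and 4.62-fold for Gad2. The widest of these ranges rested on 1 array. Without the second baseline array they were 2.11-fold for Gad2 and 1.92-fold for Pvalb, and without the first 1.62-fold for Calb2. The second baseline array was the highest of the 9 for Gad1 1368344_at, Gad2, Slc32a1, Calb2 and Reln 1373957_at and the lowest for Pvalb and Calb1.

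Baseline arrays 1 to 5 and 6 to 9 also differed in their means. For Reln 1373957_at the first 5 averaged 9.90 and the last 4 averaged 9.19, and the values did not overlap (9.71 at the lowest of the first, 9.49 at the highest of the last). The share of all probe sets that separate in this way is not given here, so this does not set Reln apart. For Slc32a1 the means were 10.37 and 9.77, for Pvalb 7.90 and 8.45, and for Calb1 11.20 and 11.57. The labels give no batch that divides the baseline arrays, and this division was made by sample number. Against baseline arrays 6 to 9 alone, Gad1 1368344_at in conditioning under isoflurane differed by 0.42 (limma adjusted p = 0.121), against 0.04 with baseline arrays 1 to 5 alone (limma adjusted p = 0.994). Reln 1373957_at changed sign with the baseline arrays used. Against arrays 6 to 9 it differed by 0.53 in pain (limma adjusted p = 0.148), 0.28 in isoflurane (limma adjusted p = 0.56), 0.50 in conditioning (limma adjusted p = 0.173) and 0.47 in conditioning under isoflurane (limma adjusted p = 0.26). Against arrays 1 to 5 the values were -0.19, -0.43, -0.21 and -0.24, with limma adjusted p of 0.968, 1, 0.851 and 0.945. With arrays 6 to 9, 4, 1, 2 and 2 of the 8 members reached an unadjusted p under 0.05 in these 4 comparisons, a p that 18.6%, 13.7%, 18.2% and 14.5% of all probe sets reached.

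Within groups, the GABA synthesis and transport genes varied together. After taking out the mean of each group, Gad1 and Slc32a1 correlated at r = 0.80 (rho = 0.78, n = 29). The two-sided permutation p, with arrays permuted within groups, was 1e-05, the smallest the 100000 permutations can give, and 0.00021 after Benjamini-Hochberg adjustment over 21 pairs of members. The correlation was 0.75 without the 2 arrays farthest from the Gad1 median, 0.95 in baseline, 0.70 in the treated arrays, 0.84 in baseline with isoflurane (the groups with a named labelling kit) and 0.80 in the other 3 groups. Arrays high in the decarboxylase transcript were high in the vesicular transporter transcript in each of these subsets.

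Of the 21 pairs, 10 had a positive r and 6 passed the adjusted threshold, 5 positive and 1 negative. Gad1 and Gad2 correlated at r = 0.69 (rho = 0.56, adjusted permutation p = 0.00434, 0.55 without the 2 farthest arrays), and Gad2 and Slc32a1 at r = 0.62 (rho = 0.57, adjusted permutation p = 0.00434, 0.53 without them). Slc32a1 also ran with Calb2 at r = 0.52 (rho = 0.60, adjusted permutation p = 0.0218, 0.49 without them). All 3 pairs were positive in baseline (0.77, 0.75 and 0.45) and in the treated arrays (0.57, 0.52 and 0.65). They were positive also in baseline with isoflurane (0.71, 0.71 and 0.51) and in the other 3 groups (0.67, 0.54 and 0.64).

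The other 2 called pairs involved calbindin. Pvalb and Calb1 correlated at r = 0.55 (rho = 0.43, adjusted permutation p = 0.0218 for r and 0.09 for rho), with 0.75 in baseline and 0.38 in the treated arrays, 0.62 in baseline with isoflurane and 0.46 in the other 3 groups. Without the 2 arrays farthest from the Pvalb median, the second baseline and the third pain array, it was 0.30 (permutation p = 0.21). The relation then kept its sign but could not be told from 0. Gad1 and Calb1 correlated at r = -0.52 (rho = -0.49, adjusted permutation p = 0.049 for r and 0.056 for rho), with -0.66 in baseline, -0.35 in the treated arrays, -0.60 in baseline with isoflurane and -0.38 in the other 3 groups. It was -0.34 without the 2 farthest arrays (permutation p = 0.19), and then this relation too kept its sign but could not be told from 0.

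Most of these calls were lost without the second baseline array. Without it, 1 of 21 pairs passed, Gad1 with Slc32a1 (r = 0.77, adjusted permutation p = 0.00021). Then Gad1 with Gad2, Gad2 with Slc32a1 and Slc32a1 with Calb2 had r of 0.54, 0.53 and 0.48, each at an adjusted permutation p of 0.0591. Pvalb with Calb1 had 0.40 (adjusted permutation p = 0.154) and Gad1 with Calb1 -0.36 (adjusted permutation p = 0.229).

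**Figure D3:**
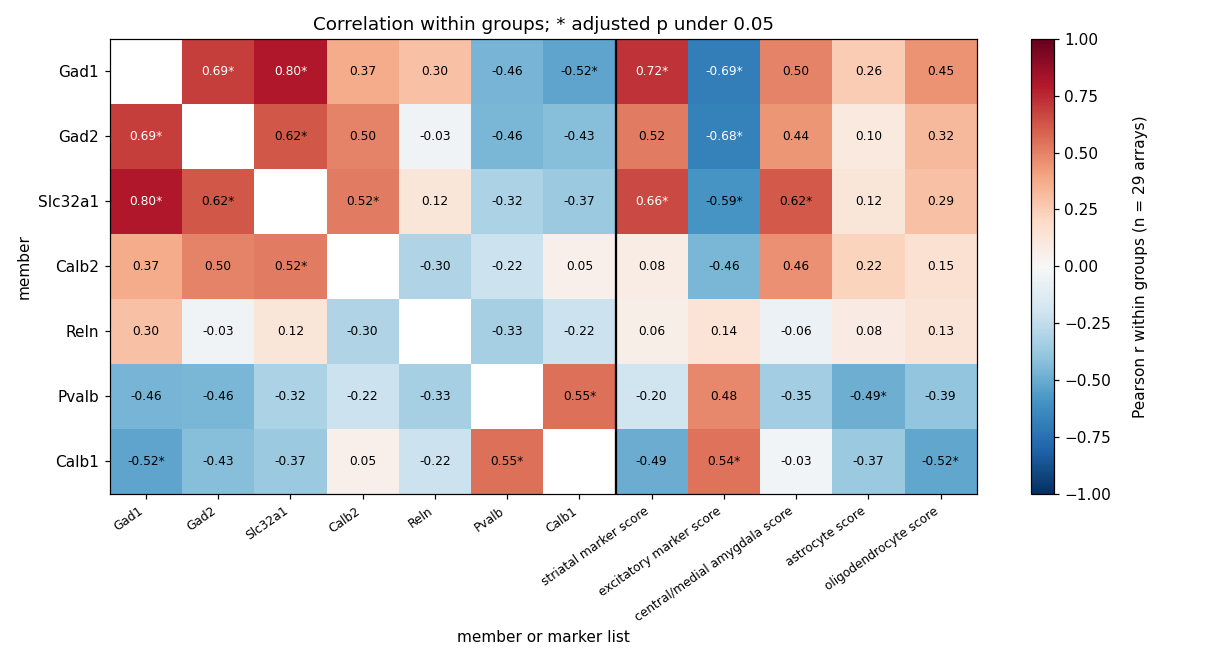
Pearson r, by colour and number, between members (left of the line) and between members and mean marker scores (right of the line), over 29 arrays after taking out group means. Asterisks mark an adjusted permutation p under 0.05, and Gad1 with Slc32a1 at 0.80 is the highest value.

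The members also varied with markers of other cell types and of neighbouring regions. A marker score is the mean over a list of each gene's log2 signal minus its mean over all arrays. Of 35 pairs of a member with 1 of 5 marker lists, a family added after the data had been seen, 9 passed Benjamini-Hochberg adjustment. Gad1 correlated with the striatal score at r = 0.72 (rho = 0.66, adjusted permutation p = 0.00648, 0.66 without the 2 farthest arrays), and Slc32a1 at r = 0.66 (rho = 0.62, adjusted permutation p = 0.00648, 0.60 without them). Slc32a1 correlated also with the score of the central and medial amygdala at r = 0.62 (rho = 0.59, adjusted permutation p = 0.00898, 0.60 without them). One of the 6 genes in that last score is Sst, which interneurons of the basolateral amygdala express too. Penk, in the striatal score, is also on the list of interneuron peptides and receptors.

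These 3 relations kept their sign in each subset of groups examined. For Gad1 with the striatal score r was 0.79 in baseline, 0.62 in the treated arrays, 0.72 in baseline with isoflurane and 0.73 in the other 3 groups. For Slc32a1 with the same score the values were 0.75, 0.59, 0.61 and 0.73, and for Slc32a1 with the central and medial amygdala 0.69, 0.57, 0.72 and 0.49. Without the second baseline array the 3 values were 0.74, 0.64 and 0.63, each at an adjusted permutation p of 0.00537. The striatal score itself ran from -0.43 in a conditioning array to 0.91 in the third baseline array, and its group means ran from -0.15 ± 0.34 in conditioning to 0.11 ± 0.14 in conditioning under isoflurane (SD, n = 5 each). Slc32a1 had its lowest and highest means in the same 2 groups. The part of neighbouring tissue in the Slc32a1 values was not tested.

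The excitatory score ran opposite to the GABA genes. Its r was -0.69 with Gad1 (rho = -0.60, adjusted permutation p = 0.00962), -0.68 with Gad2 (rho = -0.60, adjusted permutation p = 0.0181) and -0.59 with Slc32a1 (rho = -0.51, adjusted permutation p = 0.0181). Calb1 ran with it at r = 0.54 (rho = 0.47, adjusted permutation p = 0.0389). Without the 2 farthest arrays these values were -0.53, -0.62, -0.46 and 0.34, the last with a permutation p of 0.16, so the Calb1 relation rests on those arrays. In baseline they were -0.82, -0.66, -0.76 and 0.64, and in the treated arrays -0.46, -0.70, -0.44 and 0.43.

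In baseline with isoflurane the 4 values were -0.79, -0.63, -0.72 and 0.52, and in the other 3 groups -0.48, -0.75, -0.44 and 0.58. The second baseline array had the lowest excitatory score of that group, -0.35. Without it the values were -0.57, -0.54, -0.49 and 0.41, with adjusted permutation p of 0.0641, 0.0775, 0.075 and 0.137. With arrays centred on their medians in place of quantile normalization, Gad1 with the excitatory score was -0.36 (adjusted permutation p = 0.362).

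The remaining 2 called pairs were with glia. Pvalb ran against the astrocyte score at r = -0.49 (rho = -0.59, adjusted permutation p = 0.0376, -0.62 without the 2 farthest arrays), with -0.46 in baseline, -0.51 in the treated arrays, -0.43 in baseline with isoflurane and -0.54 in the other 3 groups. That sign depended on the scaling, with an r of 0.05 when arrays were centred on their medians. Calb1 ran against the oligodendrocyte score at r = -0.52 (rho = -0.48, adjusted permutation p = 0.0376), with -0.51 in baseline, -0.54 in the treated arrays, -0.45 in baseline with isoflurane and -0.61 in the other 3 groups. Without the 2 farthest arrays it was -0.41 (permutation p = 0.069), and without the second baseline array -0.46 (adjusted permutation p = 0.0775). With arrays centred on their medians it was -0.10 (adjusted permutation p = 0.834).

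**Figure D4:**
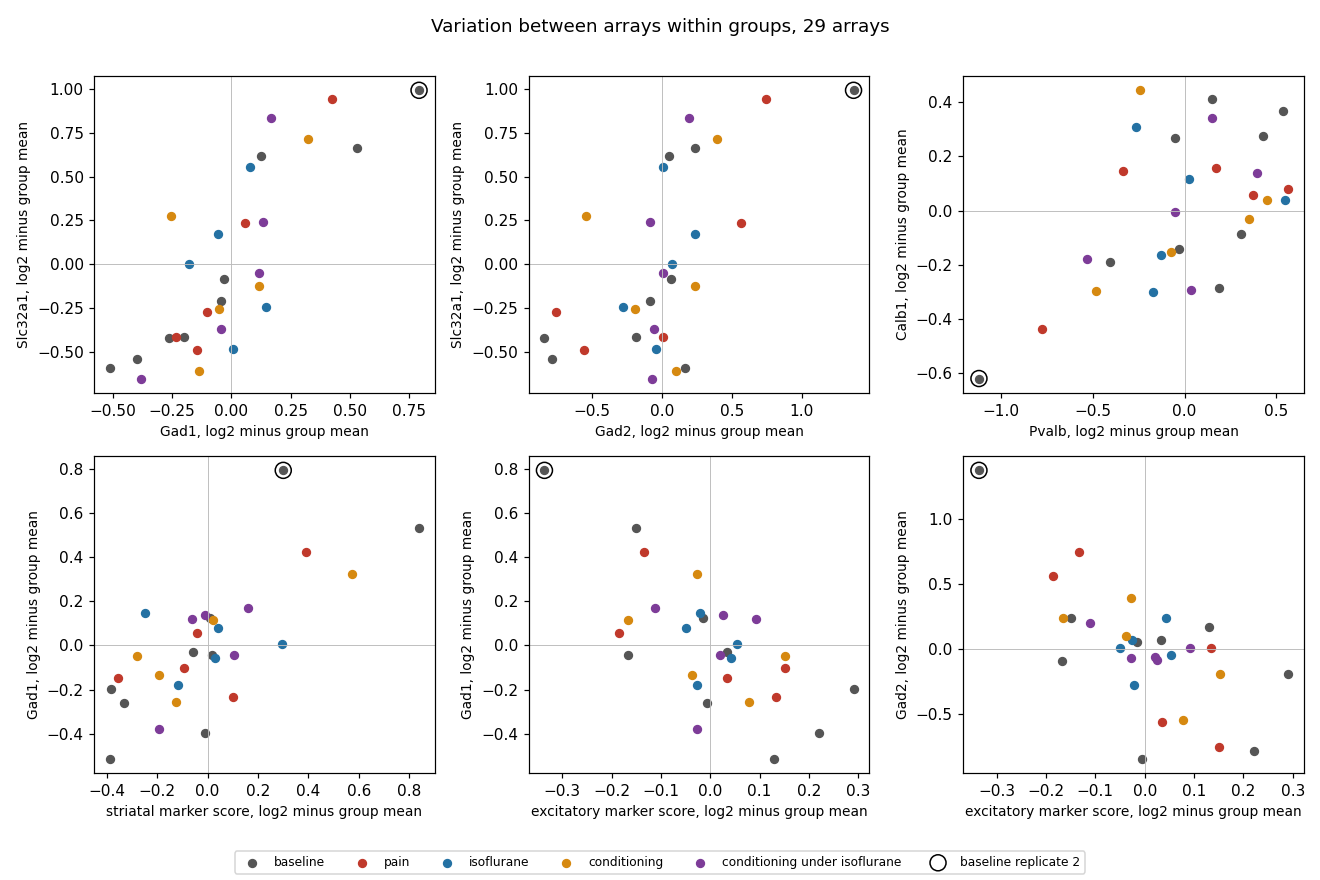
Each point is 1 of 29 arrays, coloured by group, and both axes give log2 signal or marker score minus the group mean, with the second baseline array circled. Gad1 and Slc32a1 rise together (r = 0.80), whereas the slope of Pvalb against Calb1 leans on the circled array.

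The probe sets most like each member, by Pearson r of log2 signals after taking out group means over 29 arrays, were picked as the highest among about 8042 candidates and are given as a description. For Gad1 they were Nap1l5 (r = 0.88, rho = 0.85), 6330403K07Rikl (r = 0.85, rho = 0.82) and Qpct (r = 0.85, rho = 0.82). For Slc32a1 they were 6330403K07Rikl (r = 0.88, rho = 0.86), Pnoc, which encodes the precursor of nociceptin (r = 0.87, rho = 0.84), and Cd83 (r = 0.85, rho = 0.78). One probe set, that of 6330403K07Rikl, thus stood among the first 3 of both genes. For Gad2 they were Ablim3 (r = 0.80, rho = 0.80), Pbx3 (r = 0.71, rho = 0.55) and Spata13 (r = 0.70, rho = 0.60).

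Among the calcium-binding genes, Calb1 had the closest companions, Myo5b (r = 0.88, rho = 0.85), Cadps2 (r = 0.88, rho = 0.87) and Matn2 (r = 0.84, rho = 0.85). For Pvalb they were Lclat1 (r = 0.80, rho = 0.82), Kitlg (r = 0.76, rho = 0.65) and Tnfrsf21 (r = 0.76, rho = 0.64). For Calb2 they were N4bp2 (r = 0.78), Nnat (r = 0.77) and Wdr6 (r = 0.75). Their rho values were lower, at 0.44, 0.49 and 0.58. For Reln they were LOC102554253 (r = 0.75, rho = 0.70), the calcium channel gene Cacna1b (r = 0.72, rho = 0.75) and Dgkh (r = 0.71, rho = 0.75).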

How the data were processed

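The deposited values are linear intensities of 29 one-colour rat arrays, which the authors had scaled to a common trimmed mean (2% cut at each end) of close to 500.1 on each array (tested on the deposited table). The software of that step is not given in the sources used here. Medians of the deposited intensities ran from 210.7 to 292.2, so signals were quantile normalized, floored at 16 and transformed to log2. The number of arrays limits the precision. Of 15923 probe sets, 57 controls were left out. In the annotation 12783 carry 1 symbol, 312 several and 2771 none, and 12748 were matched to RefSeq genes (GRCr8) by gene identifier. Probe sets at or above the 40th percentile of mean log2 signal (7.26) were tested, 9520 in all, with limma 3.58.1 in R 4.3.3 (lmFit, eBayes with a trend), 1 mean per group over all 29 arrays, and Benjamini-Hochberg adjustment over the 9520 at 0.05.

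The labels' abbreviations for the 2 conditioning groups were read through the series' design text. Per the labels, only baseline and isoflurane arrays have a named labelling kit, so a kit difference from the other 3 groups cannot be told apart from treatment where those are compared with them. The members, the gene and marker lists and the tests were chosen with earlier results of these data known.

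Correlations used the brightest probe set of each gene, log2 signals minus group means, and 100000 permutations of arrays within groups. Genes named outside the members are, by rule, the 3 with the lowest p of the 4 pathway lists in each comparison with baseline and the 3 most like each member; the peptide and receptor genes under the other observations, chosen after values were seen, and the marker genes of the tissue check fall outside it. The fit was tested on simulated data. Alternatives were the scaling, the filter, the floor, the variance trend, the probe set rule, a replicate block, subsets of baseline arrays, Spearman's rho and leaving out each array. Same-numbered arrays did not deviate together: their correlations ran from -0.24 to 0.26 over 10 pairs of groups, and in 0 of the 10 were all above 0.1.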

Additional observations from a re-analysis of the deposited data

Results flagged for a closer look

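Of 45 sets of arrays checked (9 member probe sets in 5 groups), 3 held an array far from the others by Dixon's test, which chance does in about 1 set of 20. Gad2 in the second baseline array read 9.25, and the nearest of the other 8 read 8.12. Calb1 in the third pain array, the array that correlated least with the rest, read 10.88, and the nearest of the others 11.37. Calb2 in the first baseline array read 9.55, and the nearest of the others 10.97. The same array had by far the highest score of the choroid plexus markers Ttr, Folr1 and Aqp1, 2.61, while the next array had 0.71. The part of choroid plexus tissue in its Calb2 value was not tested.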

How the results depend on the processing

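No member was called in any of 40 alternative settings: over 64 differences, 2520 values gave 0 past the adjusted threshold, a lowest limma adjusted p of 0.121 and 15 at an unadjusted p under 0.05. The sign changed in 164 of them, in 44 of the 64 differences, none of which had reached an unadjusted p under 0.05 to begin with. With the replicate block 0 members were called. Reln 1373957_at in isoflurane minus baseline was then -0.43 (limma adjusted p = 1), against -0.11 without the block. Replicate numbers 6 to 9 occur only in baseline, so under the block those arrays added nothing to the differences from baseline. Without them and without a block the Reln value was also -0.43. The shift thus goes with the baseline arrays used, and for differences from baseline the block is not a separate check. With baseline arrays 6 to 9 alone, the 4 comparisons with baseline called 160, 29, 101 and 57 probe sets of 9520 (pain, isoflurane, conditioning, conditioning under isoflurane), against 0, 1, 0 and 0, with no member among them but 1 pathway list gene each in conditioning and in conditioning under isoflurane. Centring arrays on their medians called 10 in pain minus baseline. Of the 21 member pairs, 1 to 8 passed when single arrays were left out, the fewest without the second baseline array and the most without the second pain array. Gad1 with Slc32a1 passed in all 34 alternatives (r from 0.67 to 0.85). With arrays centred on medians, Gad1 with Gad2 no longer passed (r = 0.51, adjusted permutation p = 0.119). Gad1 with Calb1 was lost with the deposited scaling (r = -0.42, adjusted permutation p = 0.128) and passed in 11 of 34. Of the 35 member and marker pairs, 4 to 14 passed when single arrays were left out, the fewest without the second and the most without the third baseline array. Gad1 and Slc32a1 with the striatal score and Slc32a1 with the central and medial amygdala passed in all 31 alternatives. Pvalb with the astrocyte score reversed to 0.0494 with arrays centred on their medians. The causes of the other changes were not tested.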

Other observations

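A pair of interneuron peptide genes was picked after the values were seen, and neither passed the adjusted threshold. Tac3, which encodes neurokinin B, differed by -1.11 between conditioning and pain (SE 0.49, 95% interval -2.12 to -0.11, limma adjusted p = 0.532). Vip, which encodes vasoactive intestinal peptide, had an interaction of conditioning with isoflurane of -0.70 (SE 0.27, 95% interval -1.26 to -0.14, limma adjusted p = 0.959). Of the 10 tested genes of the list of interneuron peptides and receptors, 3 were higher and 7 lower in conditioning than in baseline, with a median of -0.29 and 0 at an unadjusted p under 0.05 in limma. The lower genes were Tac3 at -0.77, Tac1 at -0.76, Cck at -0.33, Penk at -0.32, Pnoc at -0.30, Sst at -0.29 and Npy at -0.22, and the higher ones Vip at 0.32, Cnr1 at 0.13 and Htr3a at 0.11. Their limma adjusted p ran from 0.507 for Cck to 0.829 for Htr3a. Striatal markers leaned the same way in this comparison. Of 9 tested, 1 was higher and 8 were lower, with a median of -0.24. At an unadjusted p under 0.05 in limma 3 of them were lower, as were 479 of all 9520 probe sets. Of 6 tested markers of the central and medial amygdala, 2 were higher and 4 lower. Penk is also on the striatal list and Sst on the central and medial amygdala list.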
